A study of Homo sapiens with 27 samples.

Results

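Peaks of 4 RNA modifications were examined in long noncoding RNA (lncRNA) genes that carry a systematic name, in HepAD38 cells. The genes were chosen by name alone. They comprise long intergenic noncoding RNAs (LINC and a number), antisense RNAs (a name ending in AS and a number), divergent transcripts (DT), which start near a coding gene and run the other way, and intronic transcripts (IT). Peaks that named several genes were left out. Of 76940 listed peaks, 1206 were chosen, in 433 genes. RefSeq, matched by symbol or synonym, holds 426 of these genes as lncRNA, 3 as antisense RNA, 3 as transcribed pseudogenes (ATE1-AS1, LINC00266-1 and TP73-AS1), and 1, TNRC6C-AS1, as an older name of the coding gene TMC6.

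HepAD38 is an established hepatocellular carcinoma line with a hepatitis B virus genome under a tetracycline-regulated promoter. The labels give the genotype as wild type and name no drug, dose or time, so all groups share 1 condition. Total RNA was pulled down with an antibody against m1A, m5C, m7G or ac4C, and each immunoprecipitate (IP) had its own input, with 3 libraries in each of these 8 groups. The remaining 3 of the 27 libraries measured pseudouridine (Psi), with no input. The sources used here do not say if those 3 libraries were separate cultures.

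The deposited antibody lists give a level in RPM (reads scaled to library depth) for each peak in the IP and in the input, with 1 value over the 3 libraries of a group. There is therefore no spread between replicates to test against, no p-value is given, and each value has only a 95% exact (Clopper-Pearson) counting interval. Depth, from reads recovered from the RPM steps, was lowest in the ac4C IP, at 17135274 reads, and between 118320068 and 364905848 reads in the other 7 groups. Defining hepatocyte genes were listed in the m1A, m5C and m7G lists (8 of 9 in each, with ALB and APOA1 among them). The ac4C list held 0 of the 9. It held 7 of 10 fibroblast and mesenchymal markers, which the other 3 lists did not hold. Whether the ac4C IP and its input hold RNA of the same cells was not tested, and each ac4C ratio given here carries that limit.

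Antisense and divergent lncRNAs often start within or beside a coding gene, and many share a promoter region or exon bases with it. The marks differ in chemistry and known places. m1A is a methyl group on adenosine that is abundant in transfer RNA and has been reported near the starts of messenger RNAs. m5C is a methylated cytidine laid down by NSUN enzymes and, in transfer RNA, DNMT2. m7G is the methylated guanosine of the 5′ cap and also occurs inside RNA through METTL1. ac4C is cytidine acetylated by NAT10. In lncRNAs such marks are known to bear on stability and protein binding.

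RefSeq promoter windows (GRCh38.p14), each 250 bases before to 50 bases after a gene's start, were found for 319 of the 433 genes. A listed peak of the same gene reached into 78 windows, of 73 genes. Of these, 52 held an m7G peak, 29 an m5C peak, 26 an m1A peak and 10 an ac4C peak. The 6 windows printed here belong to genes whose start-site peaks carry the results, and capitals mark the bases that lie under a listed peak of that gene. OIP5-AS1 (chr15:41283740-41284039, plus strand) and RAB30-DT (chr11:83071816-83072115, plus strand) were listed for m1A, m5C and m7G within 25 bases of the start. FARSA-AS1 (chr19:12930272-12930571, plus strand) had the same 25 bases listed for all 4 marks, within the span of FARSA on the other strand. NUTM2B-AS1 (chr10:79826545-79826844, minus strand) and VIM-AS1 (chr10:17229936-17230235, minus strand) carried 2 of the strongest ac4C signals. ZNF528-AS1 (chr19:52397708-52398007, minus strand) had its highest start-site ratio in m5C.
OIP5-AS1: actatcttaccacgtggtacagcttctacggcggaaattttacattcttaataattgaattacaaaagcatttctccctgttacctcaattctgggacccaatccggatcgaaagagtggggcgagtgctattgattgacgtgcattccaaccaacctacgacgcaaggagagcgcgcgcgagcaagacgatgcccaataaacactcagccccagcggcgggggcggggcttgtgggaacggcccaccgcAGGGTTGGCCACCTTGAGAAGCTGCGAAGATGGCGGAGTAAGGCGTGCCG
RAB30-DT: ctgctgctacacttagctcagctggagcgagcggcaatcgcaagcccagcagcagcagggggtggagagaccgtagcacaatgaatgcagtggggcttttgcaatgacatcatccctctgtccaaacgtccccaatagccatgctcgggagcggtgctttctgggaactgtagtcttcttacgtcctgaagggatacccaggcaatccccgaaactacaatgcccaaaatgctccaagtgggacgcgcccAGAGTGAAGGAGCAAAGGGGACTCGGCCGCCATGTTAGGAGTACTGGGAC
FARSA-AS1: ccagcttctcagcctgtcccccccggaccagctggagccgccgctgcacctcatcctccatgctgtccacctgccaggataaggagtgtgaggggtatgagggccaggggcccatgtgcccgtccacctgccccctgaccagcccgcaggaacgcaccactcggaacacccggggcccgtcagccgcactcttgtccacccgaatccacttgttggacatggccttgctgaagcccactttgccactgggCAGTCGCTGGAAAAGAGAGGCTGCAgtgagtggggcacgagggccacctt
NUTM2B-AS1: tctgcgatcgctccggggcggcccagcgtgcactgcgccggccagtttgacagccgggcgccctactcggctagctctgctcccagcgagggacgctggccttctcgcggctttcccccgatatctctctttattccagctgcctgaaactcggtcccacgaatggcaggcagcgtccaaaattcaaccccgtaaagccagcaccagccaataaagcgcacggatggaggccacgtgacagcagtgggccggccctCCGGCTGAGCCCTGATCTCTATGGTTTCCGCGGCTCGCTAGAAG
VIM-AS1: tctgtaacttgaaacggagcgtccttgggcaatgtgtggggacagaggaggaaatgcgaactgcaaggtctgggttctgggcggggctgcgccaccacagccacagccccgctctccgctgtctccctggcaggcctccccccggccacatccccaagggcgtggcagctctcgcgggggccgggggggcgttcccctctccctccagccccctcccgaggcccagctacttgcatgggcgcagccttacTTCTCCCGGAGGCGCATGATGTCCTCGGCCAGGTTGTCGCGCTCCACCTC
ZNF528-AS1: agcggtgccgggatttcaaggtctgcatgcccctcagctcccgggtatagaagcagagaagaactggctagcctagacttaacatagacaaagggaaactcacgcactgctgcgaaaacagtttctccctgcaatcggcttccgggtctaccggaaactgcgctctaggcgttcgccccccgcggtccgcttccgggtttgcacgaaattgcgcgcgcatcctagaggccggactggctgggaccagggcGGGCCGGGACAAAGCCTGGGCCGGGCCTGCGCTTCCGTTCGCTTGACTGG

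Windows with a listed peak had a median GC content of 62.2% and a median of 23.5 CpG dinucleotides. The medians were 63% and 21 over all 371 windows of these lncRNA genes and 58.7% and 14 over the 35116 windows in the table. The letters TATAAA, searched on both strands, occurred in 6.41% of windows with a listed peak, in 7.01% of the lncRNA windows and in 11.5% of all windows of the same length. Most of these windows had listed bases among the first 50 transcribed positions: 46 of the 52 m7G windows, 26 of the 29 m5C windows, 23 of the 26 m1A windows and all 10 ac4C windows. These 50 bases are the only part of a window after the start. A peak of the transcript that reaches into a window is therefore likely to touch them by construction.

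The m5C list held the most lncRNA peaks, 411 in 263 genes, which was 1.88% of its 21827 peaks. The m1A list held 397 in 228 genes, or 1.34% of 29708. The m7G list held 269 in 192 genes, or 1.59% of 16942, and the ac4C list 129 in 102 genes, or 1.52% of 8463. Lists differ in depth, so these numbers do not compare the amount of a mark. Antisense RNAs gave most peaks in each list, with 289 of m1A, 270 of m5C, 199 of m7G and 91 of ac4C. LINC genes followed with 71, 108, 54 and 33, divergent transcripts with 32, 31, 16 and 4, and intronic transcripts with 5, 2, 0 and 1. Of the 433 genes, 212 were in 1 list, 111 in 2, 89 in 3 and 21 in all 4. The same count over all listed genes is not given here.

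The peaks were narrow. Width, counted as the bases of a peak's blocks and called in 25-base steps, had a median of 75 bases in m1A, 100 in m5C, 100 in m7G and 75 in ac4C, beside 100, 125, 125 and 75 over all listed peaks. The upper quartile of the lncRNA peaks was 150 bases in m1A, 175 in m5C, 162 in m7G and 125 in ac4C. Peaks split into blocks by a gap made up 27.7% of the m1A, 25.8% of the m5C, 30.9% of the m7G and 21.7% of the ac4C lncRNA peaks. The shares over all listed peaks were 46.6%, 35.9%, 53.0% and 30.3%. The widest lncRNA peaks were an m1A peak of 925 bases in TP73-AS1, an m5C peak of 950 bases in WAC-AS1, an m7G peak of 600 bases in MZF1-AS1 and an ac4C peak of 317 bases in VIM-AS1.

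The RPM ratio is the RPM in the IP over that in the input. Its median over lncRNA peaks was 2.17 in m1A, 1.97 in m5C, 2.92 in m7G and 21.9 in ac4C. Over all listed peaks the medians were 1.67, 1.01, 1.36 and 11.9. A peak was called higher in the IP from a ratio of 2. In m1A, 209 lncRNA peaks (52.6%) passed it, against 44.7% of all listed peaks. In m5C, 202 (49.1%) passed it, against 32.1%. In m7G, 160 (59.5%) passed it, against 37.6%. In ac4C, 128 of 129 (99.2%) passed it, against 99.6%, and the peak that did not was in LIX1L-AS1, at 1.97. A ratio of 0.5 or less was found for 25 lncRNA peaks in m1A (background 10.8%), 58 in m5C (background 28%), 0 in m7G (background 0.0472%) and 0 in ac4C (background 0%). The ratio lay below 1 for 99 lncRNA peaks in m1A (24.9%, against 32.95% of all listed peaks), 124 in m5C (30.2%, against 49.7%) and 39 in m7G (14.5%, against 27.7%). At a ratio of 3 the lncRNA calls were 154 in m1A (background 33.7%), 155 in m5C (23.1%), 133 in m7G (25.9%) and 125 in ac4C (95.3%). The counting interval lay above 1 for 265 lncRNA peaks in m1A (background 60.7%), 240 in m5C (42.7%), 217 in m7G (66.3%) and 129 in ac4C (100%). The authors' own log2 enrichment, which is not the log2 of this quotient, was above 0 for each lncRNA peak.

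**Figure D1:**
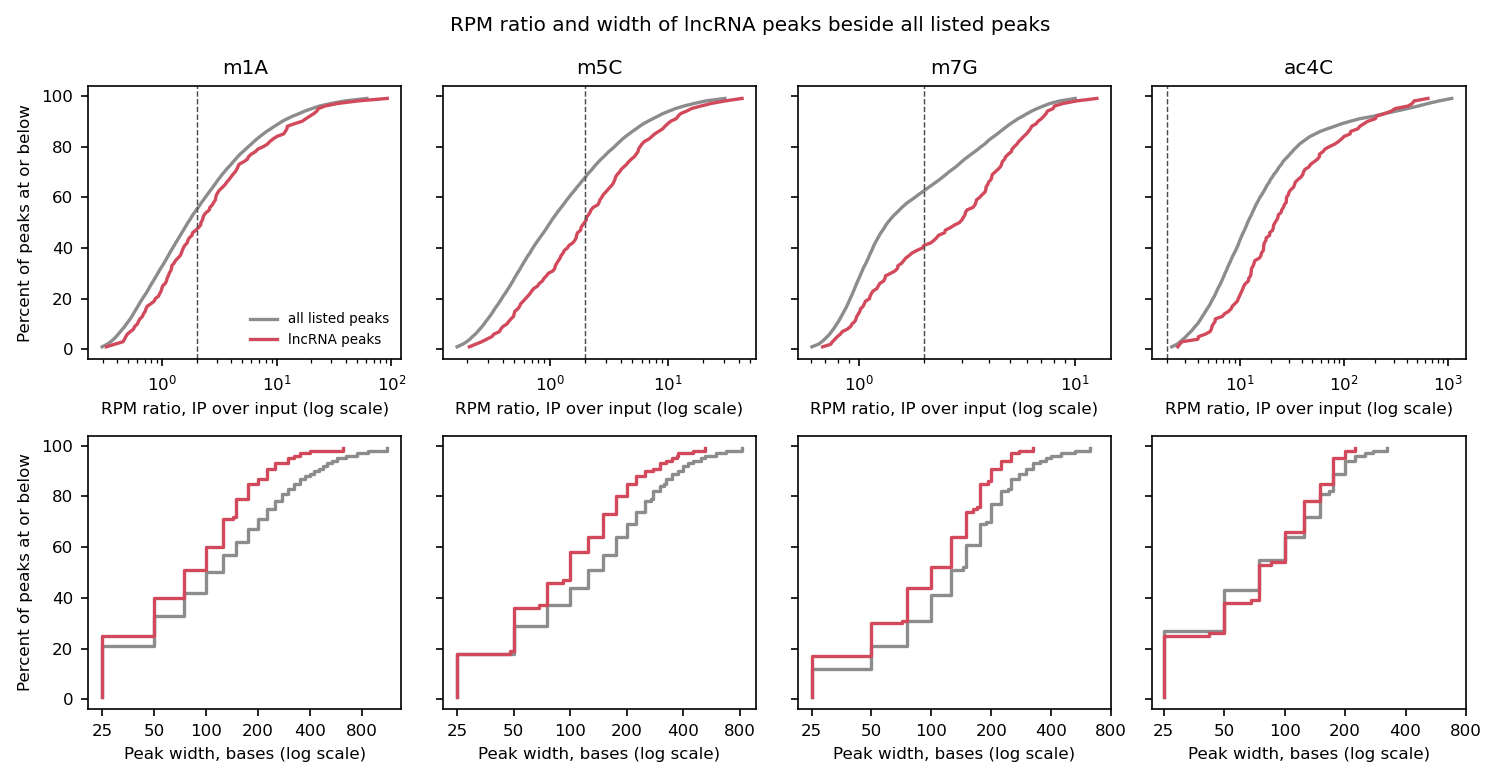
Cumulative percent of peaks (y axis) by RPM ratio of IP over input (top, log axis, dashed line at 2) and by width in bases (bottom, log axis), for lncRNA peaks (red) and all listed peaks (grey) of each list. The red ratio curves lie to the right of the grey ones at the median in all 4 lists (2.17 against 1.67 in m1A and 2.92 against 1.36 in m7G), and the widths are shorter at the median in 3 of them.

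The level in the input moved with this difference. The median input level of lncRNA peaks was 0.436 RPM in m1A, 0.535 in m5C, 1.16 in m7G and 0.141 in ac4C, against 1.07, 2.17, 4.65 and 0.315 RPM over all listed peaks. Within ranges of input reads, which were set after the values had been seen, the medians differed by a smaller fold than over the whole list. For peaks with under 100 input reads the median m1A ratio was 4.46 in lncRNA peaks and 4.07 in all peaks. From 100 to under 1000 reads it was 1.63 and 1.66, and from 1000 reads 0.941 and 0.864. In m7G the medians of these ranges were 4.11 and 4.43, then 3.001 and 2.01, then 1.13 and 1.12. In m5C they were 3.47 and 2.40, then 1.15 and 0.969, then 0.938 and 0.579, and in ac4C 36.5 and 26.2, then 10.2 and 8.20, then 2.68 and 3.86, the last from 4 lncRNA peaks.

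Classes were read from the listed names. RefSeq holds some members under a name of another class, such as RNASEH1-AS1 as RNASEH1-DT and LINC01184 as SLC12A2-DT. By class, the median m1A ratio was 2.41 in antisense RNAs, 1.76 in divergent transcripts and 1.36 in LINC genes. The median m7G ratio was 3.17, 3.16 and 1.69 in the same order. In m5C these 3 classes lay between 1.92 and 2.04. In ac4C the LINC peaks had the higher median, 38.9, against 20.4 in antisense RNAs and 19.4 in divergent transcripts. Of the 33 LINC ac4C peaks, 9 had 0 input reads and were ranked above any finite ratio. Classes also differed in median input reads. In antisense, divergent and LINC order these were 151, 128 and 265 in m1A, 276, 165 and 372.5 in m7G, and 54, 130 and 32 in ac4C. The part of input level in the class medians was not tested. The 5 m1A peaks in intronic transcripts, from 2 genes, had a median of 6.64, and the 2 m5C peaks in the same genes one of 0.346.

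Strong IP signals in m1A came with ratios on both sides of 1. PLCG1-AS1, antisense to the phospholipase gene PLCG1, had 124 RPM in the m1A IP and 382 in the input at chr20:41098194-41098343, a ratio of 0.324 (interval 0.320 to 0.328). The peak lies within the span of TOP1, the gene of a DNA topoisomerase. GABPB1-AS1, antisense to a gene for a subunit of the GA-binding protein, had 70.2 RPM in the IP and 0.693 in the input at chr15:50354374-50354598, a ratio of 101 (interval 89.4 to 115). The intronic transcript GABPB1-IT1 was listed over the same place on the other strand, at 72.3 and 0.754 RPM. The GABPB1-AS1 peak starts 200 bases from a start of its gene, while at 2500 and 3525 bases the m1A ratios of GABPB1-AS1 were 0.471 and 0.467. LIX1L-AS1, opposite RBM8A, had 102 RPM in the IP against 27.5 RPM in the input at its highest m1A peak, a ratio of 3.70.

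WAC-AS1, antisense to the gene of the adaptor protein WAC, had the widest m5C peak. Over 950 bases the m5C IP held 244 RPM and the input 23.6 RPM, a ratio of 10.3 (interval 10.02 to 10.6). An overlapping m1A peak of 775 bases held 73.4 RPM in the IP and 77.9 in the input, a ratio of 0.943. MAGI2-AS3 had 151 RPM in the m5C IP and 34.9 in the input at chr7:79458936-79459796, a ratio of 4.32, while an m1A peak within it held 10.2 and 32.3 RPM, a ratio of 0.316. In both genes the m5C ratio lay above 1 and the m1A ratio below 1 at the same place. PLCG1-AS1 had the most m5C signal of these genes, 399.7 RPM in the IP against 150.5 in the input, a ratio of 2.66.

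In m7G, LIX1L-AS1 reached 443 RPM in the IP against 55.8 in the input at its strongest peak, a ratio of 7.95 (interval 7.81 to 8.09). The peak reaches over the span of RBM8A, which codes for a subunit of the exon junction complex and was itself listed on the other strand. OIP5-AS1, a conserved cytoplasmic lncRNA also called cyrano, had 156 RPM in the IP and 23.2 in the input, a ratio of 6.72 (interval 6.54 to 6.91). LINC02067 had 297 RPM in the IP and 251 in the input, a ratio of 1.18, at a 75-base peak within the span of the ribosomal protein pseudogene RPL23AP42. High IP signal and a high ratio thus came together in LIX1L-AS1 and OIP5-AS1 and not in LINC02067 or PLCG1-AS1, whose m7G ratio was 1.02.

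In ac4C the strongest signals were 77.4 RPM in the IP against 0.375 in the input in VIM-AS1 (ratio 206, interval 172 to 249.8), 59.9 against 30.4 RPM in LIX1L-AS1 (ratio 1.97, interval 1.85 to 2.10) and 45.8 against 2.85 RPM in NUTM2B-AS1 (ratio 16.0, interval 14.6 to 17.7). VIM-AS1 is antisense to VIM, the gene of the intermediate filament protein of mesenchymal cells. It was in no list but ac4C. VIM itself was listed in ac4C at 612 RPM in the IP and 2.34 in the input, summed over 2 peaks, with peaks that overlap those of VIM-AS1. LOC642361 was listed in ac4C on the other strand over the NUTM2B-AS1 peak. Reads of the strands cannot be told apart at these places. OTUD6B-AS1 followed with 39.7 RPM in the ac4C IP and 15.5 in the input, a ratio of 2.56, and was listed over the same bases at 1.99 in m5C, 1.31 in m7G and 0.464 in m1A.

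**Figure D2:**
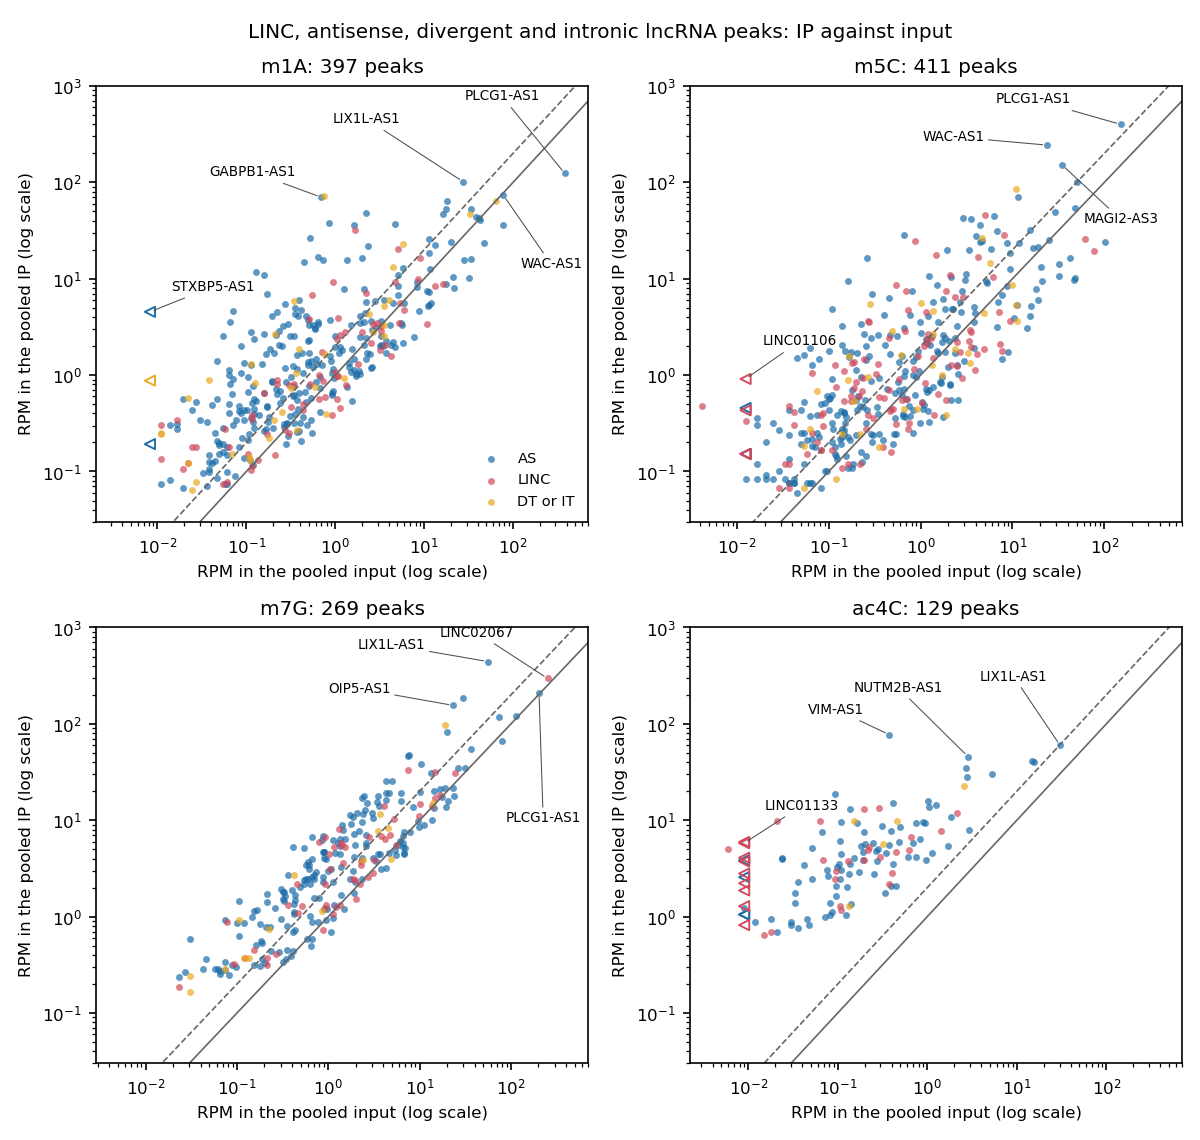
RPM in the pooled IP (y axis) against RPM in the pooled input (x axis), both on log scales, 1 point per lncRNA peak, coloured by class (AS, LINC, DT or IT). The solid line marks equal RPM and the dashed line a ratio of 2; open triangles are peaks with 0 input reads, drawn at a floor of 3 reads. The m1A, m5C and m7G points straddle the solid line, while 128 of 129 ac4C points lie on or above the dashed line.

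The peaks with the highest authors' enrichment rested on few input reads. In m1A, EIF3J-DT, divergent from a translation initiation factor gene, had 246 reads in the IP against 0, which by a floor of 3 pooled counts is at least 107-fold. CCDC183-AS1 had 54 and 0 reads (at least 23.4-fold), STXBP5-AS1 1273 and 0 (at least 552-fold) and LINC01770 86 and 4 (28.0-fold, interval 10.5 to 105). In m5C, LINC01106 had 108 and 0 reads (at least 73.4-fold), ZSCAN16-AS1 54 and 0 (at least 36.7-fold), UGDH-AS1 18 and 0 (at least 12.2-fold) and LINC02219 56 and 1 (114-fold, interval 19.7 to 4587).

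The m7G list had no lncRNA peak without input reads, and its highest values were lower. CARD8-AS1 had 154 IP and 8 input reads (19.0-fold, interval 9.39 to 44.7), TDRKH-AS1 378 and 27 (13.8-fold, interval 9.33 to 21.2), COA6-AS1 244 and 19 (12.7-fold, interval 7.93 to 21.4) and LINC01484 232 and 20 (11.4-fold, interval 7.23 to 19.1). For the first 3 the 5′ end of the peak lay 100, 125 and 47 bases from a start of the gene. In ac4C, LINC01315 had 102 and 0 reads (661-fold at the floor, exact lower limit 528) and LINC02302 32 and 0 (207-fold, lower limit 159). LINC00839 had 14 and 0 (90.8-fold at the floor, lower limit 64.5) and LINC02301 170 and 7 (472-fold, interval 224 to 1192). Input reads were 0 for 13 of the 129 ac4C lncRNA peaks, 7 of the 411 in m5C and 3 of the 397 in m1A. Over all listed peaks they were 0 for 554 of 8463 in ac4C, 172 of 21827 in m5C and 58 of 29708 in m1A.

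Over lncRNA peaks, position within the gene went with the ratio, with higher medians near a start in m1A, m7G and ac4C and a lower one in m5C. Peaks whose 5′ end lay within 500 bases of a RefSeq start of their gene were set beside those farther away. In m7G, 112 lncRNA peaks near a start had a median ratio of 4.52, and 97 farther peaks one of 1.32. A ratio of 2 was reached by 96 of the first (85.7%) and 31 of the second (32.0%), beside 77.1% and 8.49% of all listed peaks. In m1A the medians were 4.62 (101 near) and 1.55 (207 farther), and over all listed peaks 3.52 and 1.38. In m5C the order was turned, with 1.08 near a start (78 peaks) and 2.35 farther away (226 peaks), beside 0.569 and 1.14 over all listed peaks. In ac4C the medians were 28.1 (28 near) and 17.0 (62 farther), beside 11.9 and 11.6. The median input level of near and farther lncRNA peaks was 0.885 and 1.98 RPM in m7G and 0.343 and 0.441 in m1A. It was 0.900 and 0.448 RPM in m5C and 0.185 and 0.146 in ac4C. The part of input level in these medians was not tested.

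The comparison was repeated within genes that had both kinds of peak in a list. In m7G the near peaks had the higher median ratio in 21 of 23 lncRNA genes (91.3%, beside 97.5% of 2564 genes of any kind). In m1A they did so in 25 of 29 (86.2%, beside 83.1% of 2919), in m5C in 9 of 24 (37.5%, beside 28.5% of 1631) and in ac4C in 2 of 5 (40%, beside 62.3% of 480). The higher ac4C median near a start was thus not seen within these 5 genes (46.3 near and 54.4 farther). lncRNA peaks lay near a start in 53.6% of cases in m7G, 32.8% in m1A, 25.7% in m5C and 31.1% in ac4C, against 42.4%, 20.3%, 16.1% and 17.0% of all listed peaks with a RefSeq start.

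**Figure D3:**
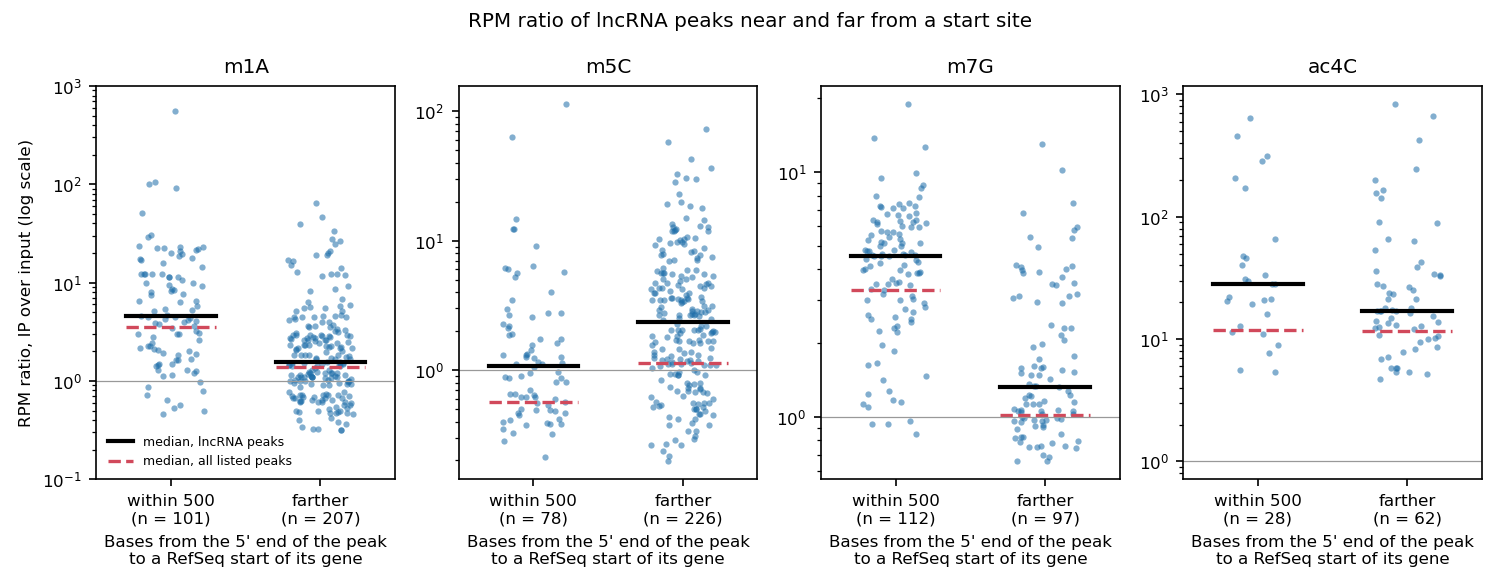
RPM ratio of IP over input (y axis, log scale) of lncRNA peaks whose 5′ end lies within 500 bases of a RefSeq start of their gene or farther away (x axis), 1 point per peak, with the median of the lncRNA peaks (black) and of all listed peaks (red, dashed). Peaks with 0 input reads are drawn at their lower bound. Points sit higher near a start in m1A (median 4.62 against 1.55) and m7G (4.52 against 1.32) and lower in m5C (1.08 against 2.35).

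Single genes show the pattern. NIFK-AS1, antisense to a gene for a nucleolar protein, had an m7G ratio of 5.13 at its start (9.04 RPM in the IP, 1.76 in the input). Its m7G ratios were 0.699, 0.824 and 0.743 at the 3 peaks that overlap NIFK, 56240 bases or more from its start. The listed RPM values do not separate the strands, so reads of NIFK-AS1 and NIFK cannot be told apart at these peaks. At those 3 places the m5C ratios were 6.13, 5.31 and 6.93. FGD5-AS1, a widely expressed lncRNA, had an m7G ratio of 7.15 at a peak 54 bases from a start, and 1.16 and 0.657 farther on. RAB30-DT had 97.4 RPM in the m7G IP and 18.9 in the input at its start, a ratio of 5.15, with m1A at 1.45 and m5C at 0.323 over the first bases of the same transcript. MAP4K3-DT had an m7G ratio of 3.31 at a peak 25 bases from its start and 1.07 at its last listed peak, where the m5C ratio was 7.85. ZNF528-AS1 went against this order: its m5C ratio at the start was 14.8 (43.2 RPM in the IP, 2.92 in the input), above its m7G ratio of 3.86 and its m1A ratio of 2.17 there.

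The share of lncRNA genes found in both lists of a pair was larger than the share of peaks that overlapped. The peak shares count all lncRNA peaks, also those of genes absent from the other list. They therefore do not measure how often marks lay at different places in 1 gene. For m1A and m5C, 138 genes were shared (60.5% of the m1A and 52.5% of the m5C genes), but 31.0% of the m1A and 30.7% of the m5C peaks overlapped a peak of the same gene in the other list by at least 1 base. Over all listed peaks these shares were 38.1% and 52.4%. For m1A and m7G they were 30.7% and 47.2% in lncRNAs (34.8% and 65.2% over all peaks), and for m5C and m7G 20.9% and 33.5% (34.0% and 46.2%). For ac4C the shares were 24.03% of its peaks with m1A, 12.4% with m5C and 13.2% with m7G, beside 35.6%, 23.8% and 23.4%. Each mark had its own input, so these lists share no control. Gene sharing over all listed genes is not given here, so that of the lncRNA genes is not set against it.

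Where peaks of 2 marks did overlap, the m1A and m5C ratios pointed different ways about as often in lncRNA peaks as over all listed peaks. Of 131 overlapping pairs of lncRNA peaks, 32 had an m1A ratio of at least 2 and an m5C ratio below 1, 17 the reverse, and 18 at least 2 in both. Over all listed peaks, of 13076 such pairs, the numbers were 3465, 2005 and 719. For m1A and m7G, 44 of 133 lncRNA pairs were at least 2 in both, and 2 and 8 were split. Over all listed peaks, of 12005 such pairs, 2407 were at least 2 in both, and 225 and 512 were split. In each of these comparisons, pairs at least 2 in both marks made up a larger share of lncRNA pairs than of all pairs.

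A peak with exactly the same blocks was listed for 1 gene in 3 or 4 lists at 7 places, in FARSA-AS1, HMMR-AS1, LIX1L-AS1, NIFK-AS1 and PLCG1-AS1. FARSA-AS1, antisense to a gene for a subunit of phenylalanyl-tRNA synthetase, had its 25 bases at the start (chr19:12930522-12930546) in all 4 lists. In ac4C, FARSA was listed over these bases on the other strand. The listed RPM values do not separate the strands, so the ratios at this place cannot be assigned to FARSA-AS1 alone. There m1A had 2.56 RPM in the IP and 0.310 in the input, a ratio of 8.28 (interval 6.78 to 10.2). ac4C had 6.36 and 0.828 RPM, a ratio of 7.68 (interval 6.10 to 9.62). m7G had 1.19 and 0.964 RPM, a ratio of 1.23 (interval 1.04 to 1.46), and m5C had 0.803 and 2.11 RPM, a ratio of 0.381 (interval 0.303 to 0.475). The m1A and ac4C intervals overlap, and those of m7G and m5C overlap no other.

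HMMR-AS1, antisense to the gene of a hyaluronan receptor, showed the other order at chr5:163483004-163483178. Its m5C level was 36.0 RPM in the IP and 4.42 in the input, a ratio of 8.14 (interval 7.61 to 8.71). The m1A ratio there was 0.565 (15.8 and 28.0 RPM) and the m7G ratio 0.757 (15.7 and 20.7 RPM). Of the 6 places listed for both m1A and m5C, m5C had the higher ratio at 4 (HMMR-AS1, both places in NIFK-AS1, PLCG1-AS1) and m1A at 2 (FARSA-AS1 and 1 place in LIX1L-AS1). The m7G ratio lay between the m1A and m5C ratios at all 6.

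**Figure D4:**
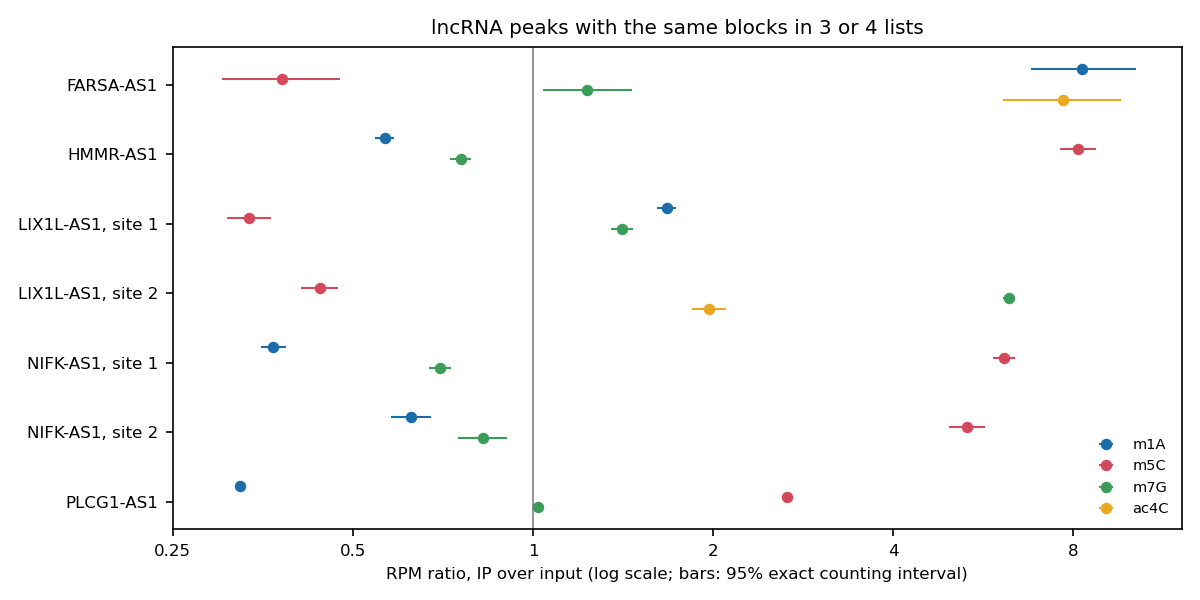
RPM ratio of IP over input (x axis, log scale) with 95% exact counting intervals for each lncRNA peak listed with the same blocks in 3 or 4 lists, 1 place per line and coloured by mark. The m5C points lie farthest right in HMMR-AS1, NIFK-AS1 and PLCG1-AS1 (8.14, 6.13 and 5.31, and 2.66) and farthest left in FARSA-AS1 and LIX1L-AS1 (0.381, 0.336 and 0.440).

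The genes with the highest enrichment ranks over all 4 lists included ZSCAN16-AS1, OIP5-AS1, SVIL-AS1, NPSR1-AS1, FLVCR1-DT, NNT-AS1 and KMT2E-AS1. OIP5-AS1 had its m7G peak at the start (ratio 6.72), where m1A was at 2.28 and m5C at 1.25. Another m5C peak lay 17818 bases from the start and had 28.5 RPM in the IP and 0.668 in the input, a ratio of 42.6 (interval 36.4 to 50.2). Its ac4C peak lay farther still, with 8.46 and 0.501 RPM, a ratio of 16.9 (interval 13.4 to 21.2). The m1A, m5C and m7G peaks thus met at the start, and the highest m5C ratio and the ac4C peak lay elsewhere along this RNA.

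ZSCAN16-AS1, antisense to a zinc finger gene, had an m1A ratio of 4.57 and an m5C ratio of 58.2 (9.41 RPM in the IP, 0.162 in the input) at overlapping bases. Its ac4C ratio was 165 at a peak nearby, from 68 and 8 reads, and its m7G ratio was 4.76 at a peak 486 bases from a start. FLVCR1-DT had an m7G ratio of 3.18 and an m5C ratio of 0.387 within its first bases, and an m5C ratio of 19.8 at a peak 1310 bases on. SVIL-AS1 had 6.92 RPM in the m7G IP and 0.871 in the input at its start, a ratio of 7.94, and a Psi peak lay there as well. NPSR1-AS1 had an m5C ratio of 10.2 and an m1A ratio of 0.948 over nearly the same bases. NNT-AS1 had an ac4C ratio of 170 (interval 81.8 to 410) 4 bases from a start. NNT was listed there on the other strand, so reads of NNT-AS1 and NNT cannot be told apart. The m7G ratio of NNT-AS1 was 1.06. KMT2E-AS1 had ac4C ratios of 53.0 and 48.0, and between those peaks an m1A ratio of 4.47 and m7G ratios of 3.05 to 3.88.

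Many antisense RNAs share bases with a listed peak of a gene on the other strand. That was so for 120 m1A lncRNA peaks (30.2%), 87 in m5C (21.2%), 97 in m7G (36.1%) and 31 in ac4C (24.03%), against 3.29%, 4.19%, 4.20% and 2.66% of all listed peaks. The names of antisense genes make such a difference part of the choice. In the lists, 20 pairs of peaks had the same blocks on opposite strands, and all 20 had equal RPM in the IP and in the input. The listed RPM values are thus the same for both strands of a place, and reads of an antisense RNA and its partner cannot be told apart there. The median ratio of lncRNA peaks with and without such an overlap was 2.80 and 2.10 in m1A, 1.01 and 2.25 in m5C, 3.17 and 2.56 in m7G, and 17.1 and 24.5 in ac4C.

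The gene whose name an antisense, divergent or intronic RNA carries was itself listed for 146 of 185 such lncRNAs in m1A, 148 of 194 in m5C, 115 of 154 in m7G and 42 of 74 in ac4C. The ratio of summed RPM was higher in the lncRNA than in its partner for 87 of 145 m1A pairs, 89 of 147 m5C pairs, 75 of 115 m7G pairs and 23 of 40 ac4C pairs. Medians for lncRNA and partner were 2.45 and 1.45 in m1A, 1.94 and 1.28 in m5C, 3.30 and 1.52 in m7G, and 21.4 and 13.5 in ac4C. The partner had more IP signal: in m7G the median was 5.15 RPM per lncRNA and 32.0 RPM per partner. Pairs whose peaks overlap share reads. Among pairs without such overlap, the ratio was higher in the lncRNA for 44 of 74 in m1A and 67 of 97 in m5C. In m7G it was so for 33 of 47 and in ac4C for 14 of 20.

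HMMR-AS1 and HMMR, whose peaks overlap, had close ratios in each list: 7.34 and 8.04 in m5C, 0.598 and 0.478 in m1A, and 0.764 and 0.843 in m7G. The listed RPM values do not separate the strands, so overlapping peaks of a pair share reads. Close ratios in such pairs therefore do not show a mark on each RNA. NIFK-AS1 and NIFK were at 3.70 and 4.66 in m5C. HMGN3-AS1 and HMGN3, a nucleosome-binding protein gene, were at 5.81 and 6.22 in ac4C, with 30.5 and 29.9 RPM in the IP. KIF1C-AS1, antisense to a kinesin gene, was at 3.48 in m1A and 0.328 in m5C, and KIF1C at 4.54 and 0.297. IPO9-AS1 and IPO9, an importin gene, were at 11.3 and 14.0 in ac4C and at 6.23 and 5.98 in m7G. NOP14-AS1 and NOP14 were at 1.58 and 1.19 in m7G. WAC-AS1, whose peaks do not overlap those of WAC, was at 8.24 in m5C against 0.870 in WAC, and at 0.877 in m1A against 2.78. PEG3-AS1, which overlaps the imprinted gene PEG3, was at 23.3 in m5C against 0.360 in PEG3, whose 9 peaks extend over other bases.

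Of 13 lncRNAs known from liver, 7 had a listed peak. LINC00261, which neighbours the hepatic transcription factor gene FOXA2, was in all 4 lists. At its start the m1A level was 20.6 RPM in the IP and 5.12 in the input (ratio 4.02), m5C 17.0 and 4.22 RPM (ratio 4.02), and m7G 14.1 and 4.03 RPM (ratio 3.49). In its last part, 16189 bases from the start, m7G was at 14.1 and 13.5 RPM, a ratio of 1.04. Its ac4C peak had 2.86 and 0.399 RPM, a ratio of 7.16. CEBPA-DT, beside the gene of a hepatocyte transcription factor, had ratios of 1.47 in m1A and 0.516 in m5C at the peaks with the most IP signal. F11-AS1, opposite a clotting factor gene, was listed in m1A (2.31) and m5C (3.91). A1BG-AS1 was listed in m1A and m7G, LINC01348 in m7G (3.01) and LINC01554 in ac4C. A ratio of 2 was reached by 6 of 12 m1A, 3 of 8 m5C, 3 of 6 m7G and 2 of 2 ac4C peaks of these genes, beside 44.7%, 32.1%, 37.6% and 99.6% of all listed peaks. LINC01018, LINC00844, LINC01093, HNF4A-AS1, CPS1-IT1 and ADORA2A-AS1 had no listed peak.

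Of 16 lncRNAs studied in liver cancer, 10 had a listed peak, 5 in m1A, 6 in m5C, 8 in m7G and 0 in ac4C. In m1A 8 of their 14 peaks reached a ratio of 2, in m5C 5 of 10 and in m7G 7 of 9, beside 44.7%, 32.1% and 37.6% of all listed peaks. LINC00467 had 45.7 RPM in the m5C IP and 4.98 in the input over 6 blocks, a ratio of 9.18 (interval 8.63 to 9.78), and its m1A ratio was 0.814. LINC00205, listed in m1A and m5C, had 31.8 RPM in the m1A IP and 1.65 in the input, a ratio of 19.3 (interval 17.8 to 21.0), 4388 bases from its start. MAPKAPK5-AS1 reached 50.8 and 22.3 at 2 neighbouring m1A peaks that overlap MAPKAPK5. TMPO-AS1 reached 21.6 in m1A over bases shared with TMPO, the gene of a nuclear lamina protein, and a neighbouring m5C peak was at 1.13. MCM3AP-AS1 had 3 m1A peaks at 0.491 to 0.775 and m5C peaks at 29.8 and 3.64. LINC00662 was at 2.27 in m5C and 3.49 in m7G, and LINC00511 at 1.39 in m5C. ZEB1-AS1 (5.32 and 4.93) and FOXP4-AS1 (4.17) were listed in m7G alone among the 4 lists.

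Of 12 widely expressed lncRNAs, 10 had a listed peak, with 8 genes in m1A, 7 in m5C, 8 in m7G and 6 in ac4C. A ratio of 2 was reached by 9 of 22 m1A, 8 of 20 m5C, 9 of 17 m7G and 8 of 8 ac4C peaks, beside the same 44.7%, 32.1%, 37.6% and 99.6% of all listed peaks. LINC00667 had 5 m1A peaks, at 0.314 to 1.36, and an m7G peak at its start at 2.52. THUMPD3-AS1 had m7G ratios of 13.0, 5.40 and 4.62 and an m1A ratio of 0.728. NUTM2A-AS1 was at 22.9 in m1A and 0.469 in m5C at its start. LINC00342 had m5C ratios of 1.90 to 4.16 and an m1A ratio of 0.709. PCBP1-AS1 was listed in m7G alone (2.61) and LINC01128 in ac4C alone (29.4). Among 9 lncRNAs of the HOX clusters, which hold the body-axis patterning genes, 3 had a peak: HOXA-AS3 in m5C, HOXA-AS2 in m7G and HOXC-AS2 in ac4C. HOXC-AS2 was at 5.14 RPM in the ac4C IP and 0.0510 in the input, a ratio of 101 (interval 59.4 to 181).

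Of 12 lncRNAs known from mesenchymal and endothelial tissue, 3 had a listed peak. ACTA2-AS1, opposite the smooth muscle actin gene, had an m1A ratio of 0.673. MBNL1-AS1 was at 1.97 in m5C and 58.3 in ac4C (9.45 RPM in the IP, 0.162 in the input), where it overlaps MBNL1. LINC01133 was in ac4C alone, with 99 reads in the IP and none in the input, 642-fold at the floor of 3 counts (exact lower limit 512). Beside these stand the marker values of the ac4C list: COL1A1, COL1A2, COL3A1, DCN, LUM, THY1 and VIM summed to 893 RPM in the ac4C IP and 3.21 in its input. Hepatocyte markers had no listed ac4C peak, endothelial markers 0 of 3 in any list, and of 3 immune markers only CD68 was listed, in each list. These marker values concern the ac4C list as a whole, and the part of other cells in any of its ratios, those of VIM-AS1, LINC01133, HOXC-AS2 and NNT-AS1 among them, was not tested. In bulk RNA, fewer cells of a type and less RNA per cell cannot be told apart.

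A Psi peak overlapped 14 lncRNA peaks in m7G (5.204%), 6 in m1A (1.51%), 6 in m5C (1.46%) and 1 in ac4C (0.775%). Over all listed peaks the shares were 15.4%, 10.4%, 9.95% and 5.44%. MZF1-AS1 had its widest m7G peak (54.99 RPM in the IP, 36.2 in the input, ratio 1.52) and an m1A peak (52.8 and 34.1 RPM, ratio 1.55) over a Psi peak with a fold of 4.45 over the local background, as the caller gave it. Its m5C peak there had a ratio of 0.390.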

How the data were processed

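The members and gene lists were chosen with earlier results of these data known. Per the submitters' processing notes, HISAT2, StringTie, DESeq and hg38 were used, without roles; the sources used here do not name the caller of the antibody peaks. The authors deposited, for each antibody, 1 list of peaks with RPM values of the IP and the input, pooled over 3 libraries. The deposited log2 enrichment and the p-value, with its adjusted value, are the authors' own, and the latter was used only to order peaks for the stricter lists. Per the file headers, MACS 2.2.6 made 1 Psi list from its 3 libraries and no control, and its pileup signal was not used beyond the position of each peak, while its fold over the local background is printed once.

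From these were computed widths, overlaps (at least 1 base) and RPM ratios. The distance of 500 bases that counts as near a start was set after the lists had been read. Dividing by the smallest step turned 100% of RPM values into whole reads (tolerance 0.1 read), which gave the exact intervals at 95%. Per the labels' protocols the kit adds molecular identifiers; their use in counting is not stated. Intervals cover counting error only, and the floor of 3 counts is a set value, not an interval limit. No count model was run, since each group has 1 pooled value. The step that recovers reads and the intervals was tested on simulated data. The tools were Python 3.11.15, numpy 2.4.6, pandas 2.3.3, scipy 1.17.1 and matplotlib 3.10.9.

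Genes were named, in each list, as the 4 with the highest authors' enrichment, the 4 with the highest summed IP RPM, the widest peak, and the 4 partnered lncRNAs with the most IP reads; over the lists, as 8 of the genes in all 4, and the listed genes of 5 gene lists. HMMR-AS1, FARSA-AS1, RAB30-DT, ZNF528-AS1, MAP4K3-DT, KIF1C-AS1 and GABPB1-IT1 were singled out after their values were seen. No sequence of chromosome 8 was used. Peaks naming several genes, of which 10 in m1A, 12 in m5C, 4 in m7G and 1 in ac4C named such an lncRNA, were left out. Values of some genes that this rule names are not reported here.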

Additional observations from a re-analysis of the deposited data

How the results depend on the processing

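No paired analysis was possible because the listed values are pooled over the libraries of a group, so neither a replicate block nor leaving out a replicate could be fitted. Of 64 values under another setting, 47 stayed close to the reported ones, 17 moved and none turned direction. The stricter list keeps peaks at or below the median adjusted p of their list, so it has fewer peaks by construction. It held 211 lncRNA peaks in m1A, 181 in m5C, 130 in m7G and 52 in ac4C. Their median ratios were 1.82 in m1A, 1.97 in m5C, 3.86 in m7G and 15.8 in ac4C. Their median widths were 100 bases in m1A, 125 in m5C, 125 in m7G and 100 in ac4C. Overlapping peaks numbered 62 of m5C with m1A, 58 of m7G with m1A, 14 of ac4C with m1A, 34 of m7G with m5C, 6 of ac4C with m5C and 7 of ac4C with m7G. With 1 peak per gene the median ratio was 2.27 in m5C and 3.46 in m7G. Without peaks that overlap one of another gene, the m5C median was 2.25, and m7G kept 172 peaks. The cause was not tested for these medians. Calls at 1.5-fold, at 3-fold, by the counting interval and with at least 10 input reads stayed within 1.5 times the reported counts. In ac4C the median lncRNA peak rested on 70 IP and 47 input reads, which limits the precision of single peaks.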
